A study of Rattus norvegicus with 12 samples.

Results

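Prostates of rats with partial bladder outlet obstruction that received Eviprostat were compared with prostates of sham-operated rats that received only vehicle. The comparison rests on the arrays titled for these groups, 3 for obstruction/Eviprostat and 3 for sham/vehicle, which are 6 of the 12 arrays of the series. It asks what still differed from the untreated control after both the surgery and the drug. Obstructed rats had a rubber ring tied around the urethra close to the bladder neck, and were dosed with Eviprostat, a plant-based medicine given for an enlarged prostate. Each dose was 18 mg/kg, which made 36 mg/kg daily. In that operation the prostate was drawn aside to reach the urethra. The other series groups, obstruction/vehicle and sham/Eviprostat, serve here to place each gene. Vehicle was 0.1% Tween 80, and sham/vehicle rats received it alone. All rats were males of 10 weeks, and each group held 5 or 6 animals. Treatment lasted 5 days in every group, but began on the day after the operation in obstructed rats and 5 days after it in sham rats, so operation and time since surgery cannot be told apart. Prostate tissue was pooled within a group before labelling, although the labels call the arrays biological replicates. The p-values therefore measure the spread between arrays, which may be technical, and not that between animals.

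Each array carried RNA of its group in Cy5 and sham/vehicle RNA in Cy3. The sham/vehicle arrays thus held the same RNA in either dye, and the values below are log2 ratios of Cy5 to Cy3. A difference is the obstruction/Eviprostat mean minus the sham/vehicle mean, given with its standard error (SE). Calls use limma with Benjamini-Hochberg adjustment over 36097 probes at a threshold of 0.05. Cy5 was well above background at 70.9% to 88.4% of an array's spots, and the number of arrays limits the precision. Replicate number was also slide number, and the slide 1 arrays stood apart: among obstruction/Eviprostat arrays, log ratios of replicate 1 correlated with those of replicates 2 and 3 at 0.391 and 0.422, against 0.801 between replicates 2 and 3. Among sham/vehicle arrays the same correlations were 0.033 and 0.039, against 0.602.

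An obstructed bladder outlet raises the pressure and stretch on the lower urinary tract, and wounding or stretch of such tissue is known to draw in myeloid cells and to turn on matrix genes. Interleukin-1 signalling starts many of these responses and is held back by a soluble receptor antagonist. Metalloproteinases cut the matrix, and tissue inhibitors bind and block them. The rat prostate is a secretory gland whose luminal cells depend on androgen, and it lies beside the seminal vesicles, the urethra and striated muscle.

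Few genes were called between treated obstruction and untreated sham in the main fit, which leaves out the slide. Il1rn, the interleukin-1 receptor antagonist, and Mmp7, the metalloproteinase matrilysin, were each more than 9-fold higher in obstruction/Eviprostat, and Timp1, a tissue inhibitor of metalloproteinases, was 4.47-fold higher. Wfdc18, a gene of the whey acidic protein family, was 4.32-fold lower. In all, 106 of 36097 probes were called, or 0.294%, with 63 higher and 43 lower, and 34 and 17 of them differed at least 2-fold. Counted by the brightest probe of each gene, 76 of 14676 genes were called, or 0.518%, with 47 higher (0.32%) and 29 lower (0.198%). Against obstruction/vehicle the same arrays gave 1409 probes higher (3.9%) and 2127 lower (5.89%), together 9.8%, and against sham/Eviprostat 2.28% of probes and 2.49% of genes were called. The median difference over all genes was 0.006, and 2019 probes had an unadjusted p under 0.05. A further 23 of the called probes carry no gene name. With the slide as a replicate block, limma called 535 probes higher and 362 lower (2.48% of probes), and 525 genes (3.58%). Median centring of the arrays in place of loess called 10 probes higher and 0 lower, and no background correction called 101 and 104, so the share of calls that are higher, 59.4% here, was 100% and 49.3% in those settings.

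**Figure D1:**
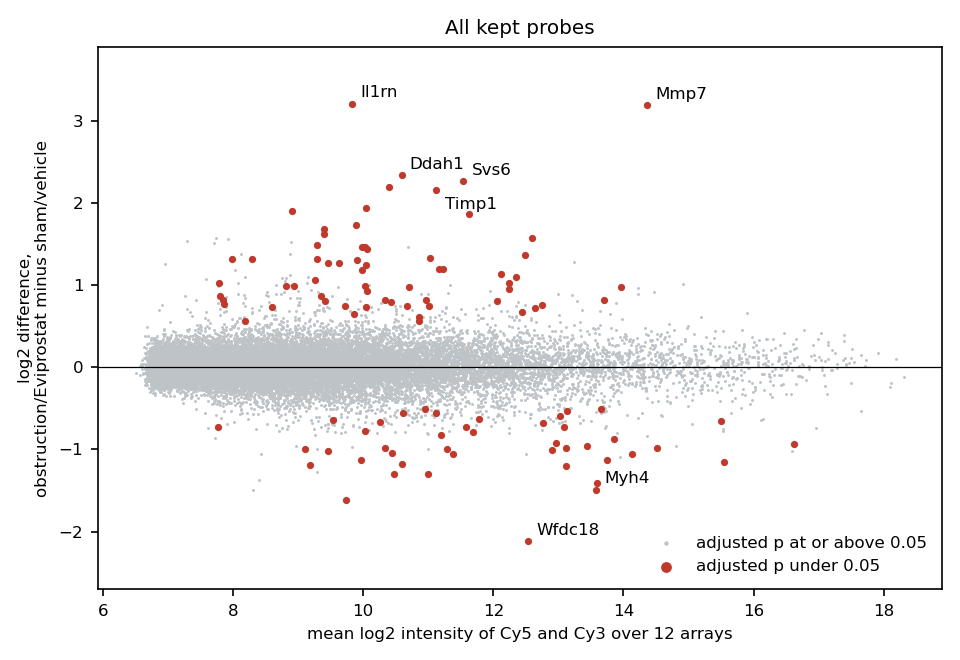
Each point is 1 of 36097 probes. The horizontal axis is its mean log2 intensity over both dyes and 12 arrays, and the vertical axis its log2 difference, obstruction/Eviprostat minus sham/vehicle. The 106 called probes are red, and Il1rn (3.21) and Mmp7 (3.20) lie above all others.

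How firmly a gene was called varied. Of the 76 genes, Il1rn, Mmp7 and Timp1 kept the call in all 16 other settings tried. Another 19 lost it only with median centring, where their adjusted p ran from 0.0592 to 1, and kept it in the other 15 settings. These 22 genes hold 17 higher and 5 lower ones. Leaving out 1 array ended the call of 52 genes, for 27 of them whichever of the 6 arrays was left out. Median centring left the calls of Il1rn, Mmp7, Timp1, Svs6, Dnase2b and Mal, so it is not repeated below. No background correction left 53 of the 76, Cy5 alone 63 and slides 2 and 3 alone 69. The settings changed no sign among the called genes.

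The probes of Il1rn, Mmp7, Timp1, Ddah1 and Wfdc18 are shown because these genes had the largest or firmest differences and the values below are what these letters captured. A pair is shown where probes of one gene disagree. The array's design places them on rat build rn3, and each is 60 bases long. No rn3 annotation was used here, so exon, intron and UTR are not given.
Il1rn, brightest probe, chr3:2613130-2613189, plus strand: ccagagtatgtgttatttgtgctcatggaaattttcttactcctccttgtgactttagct
Il1rn, other probe, chr3:2609497-2610531, plus strand: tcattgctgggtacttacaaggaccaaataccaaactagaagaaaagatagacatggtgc
Mmp7, chr8:4533647-4533706, plus strand: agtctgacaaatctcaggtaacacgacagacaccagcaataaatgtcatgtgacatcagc
Timp1, chrX:12548256-12549259, minus strand: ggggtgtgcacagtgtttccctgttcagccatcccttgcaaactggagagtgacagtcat
Ddah1, brightest probe, chr2:244056745-244056804, plus strand: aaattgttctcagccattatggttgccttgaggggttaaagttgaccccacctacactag
Ddah1, other probe, chr2:244054968-244055027, plus strand: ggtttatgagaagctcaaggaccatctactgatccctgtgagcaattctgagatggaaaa
Wfdc18, chr10:71947391-71947450, plus strand: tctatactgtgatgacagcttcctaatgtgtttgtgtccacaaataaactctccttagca
The second Il1rn probe spans 1035 bases and the Timp1 probe 1004 bases of the genome, more than their 60 letters, so each joins separated stretches.

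Among signalling inhibitors, Il1rn had log2 ratios of 3.37, 3.09 and 3.14 on the obstruction/Eviprostat arrays, against 0.13, -0.12 and -0.04 on the sham/vehicle arrays. Every treated array was far above every control array, and the difference was 3.21 ± 0.24 (SE, n = 3 each; limma adjusted p = 6.93e-05). The other Il1rn probe, printed above, gave 0.56 and was not called. It was well above background on 2 obstruction/Eviprostat arrays and on 0 sham/vehicle arrays, and the median of both probes gave 1.88, which kept the call. In obstruction/vehicle the brightest probe averaged 5.30 ± 0.61 (SD, n = 3), and the treated mean was 2.10 ± 0.24 lower (limma adjusted p = 0.000133). It averaged 0.10 ± 0.23 in sham/Eviprostat, and the treated obstructed mean was 3.10 higher (limma adjusted p = 1.66e-05). So Il1rn stood between the untreated obstructed level and that of both sham groups.

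The inflammatory genes around Il1rn lay close to the sham level. Il1b, the cytokine that the antagonist opposes, averaged 0.009 ± 0.147 in obstruction/Eviprostat and -0.035 ± 0.059 in sham/vehicle (SD, n = 3 each), with a difference of 0.045 and a 95% confidence interval of -0.25 to 0.34. In obstruction/vehicle it averaged 3.62 ± 0.30. Cxcl2, an attractant of neutrophils, averaged 0.26 in obstruction/Eviprostat, 7.31 in obstruction/vehicle and 0.03 in sham/vehicle (difference from sham/vehicle 0.23, interval -0.22 to 0.68). The intervals of Cxcl1 (0.084, -0.84 to 1.01), Lcn2 (-0.29, -0.66 to 0.064), C3 (-0.17, -0.55 to 0.20), Hmox1 (0.066, -0.19 to 0.32), Nos2 (0.040, -0.47 to 0.56) and Cd74 (-0.098, -0.30 to 0.10) also held 0. With the scanner's log ratio C3 was called lower, at -0.32 (limma adjusted p = 0.0458). A missed threshold does not show that the levels are equal, and the widest of these intervals still allow about a 2-fold difference. The prostaglandin synthase Ptgs2 differed by 0.10 (-0.60 to 0.81) and Tnf by 0.010 (-0.15 to 0.17). Tnf was the exception in obstruction/vehicle, at -0.011. Il6 and the brightest probe of the calprotectin gene S100a8 were not well above background on any of the 6 arrays, and the other S100a8 probes differed by 0.052 and -0.031. The S100a9 and Tnf probes were well above background on 2 arrays of each group, and Cxcl1 on 3 obstruction/Eviprostat arrays and 1 sham/vehicle array.

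**Figure D2:**
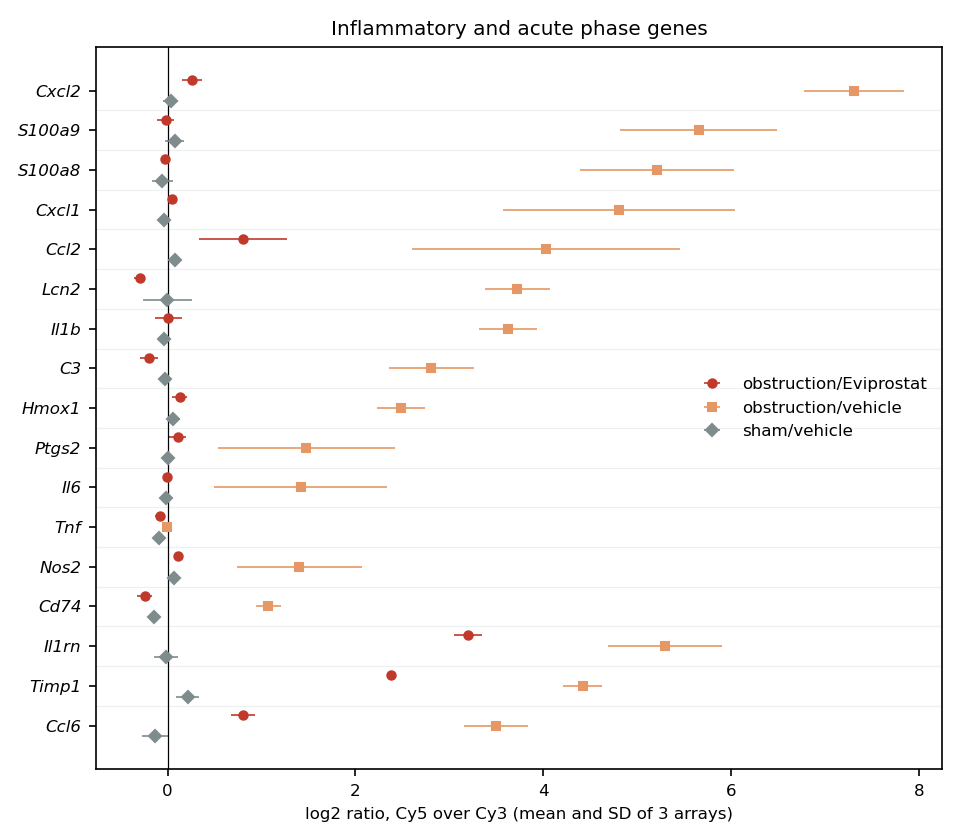
Mean log2 ratio (points) and SD (bars) of 3 arrays for 17 inflammatory and acute phase genes in obstruction/Eviprostat (circles), obstruction/vehicle (squares) and sham/vehicle (diamonds). Il1rn and Timp1 hold a raised treated level, at 3.20 and 2.38, while Il1b lies at 0.009 and Cxcl2 at 0.26.

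Of 26 cytokine genes measured, Il1rn was the 1 called, and the list's median difference was 0.029, against 0.006 over all genes. Among 30 chemokine genes, 1 was called: Ccl6, an attractant of myeloid cells, had 0.66, 0.89 and 0.86 in obstruction/Eviprostat and -0.29, -0.01 and -0.09 in sham/vehicle. All treated arrays were higher, by 0.93 ± 0.17 on average (limma adjusted p = 0.0473), and the call was lost without background correction, on slides 2 and 3 alone, and whichever array was left out, at 0.85 to 1.00. Ccl2, a monocyte attractant, had 0.27, 1.05 and 1.103 in obstruction/Eviprostat and 0.00, 0.13 and 0.10 in sham/vehicle, and was not called (0.73, interval -0.38 to 1.84). It was called in Cy5 alone (0.80) and with the scanner's log ratio (2.01). Of 22 inflammatory enzyme and sensor genes and 21 neutrophil genes, 0 were called by limma, and 0 of either list had an unadjusted p under 0.05, with median differences of 0.061 and 0.001.

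Macrophage and monocyte genes leaned higher. Of 22 genes measured 19 had a positive difference and the median was 0.31, but 1 was called over all probes, C1qc, a chain of the complement component C1q (0.74 ± 0.12, limma adjusted p = 0.0242; lost without background correction and whichever array was left out, at 0.67 to 0.79). The second C1qc probe gave 0.33 and was not called. With the slide as a replicate block 6 genes of the list were called, all higher. C1qa, another chain, differed by 0.73 and was called with the block (limma adjusted p = 0.000302, against 0.825 without it), with the scanner's log ratio and on slides 2 and 3. Its second probe was called without the block, at 0.75. The mean of the list over an array was 0.35 to 0.38 in obstruction/Eviprostat, 1.47 to 2.21 in obstruction/vehicle and 0.00 to 0.03 in sham/vehicle. In pooled tissue, fewer cells of a type and less RNA per cell cannot be told apart. The defining markers Cd68, Csf1r and Tyrobp differed by 0.22, 0.20 and 0.26 and were not called. Second probes of Csf1r and Tyrobp gave -0.075 and -0.038 and were not called either.

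Among genes of matrix proteolysis, Mmp7 and Timp1 rose. Mmp7, which degrades matrix and cleaves epithelial surface proteins, had log2 ratios of 3.14, 3.38 and 3.27 in obstruction/Eviprostat, against 0.01, 0.13 and 0.05 in sham/vehicle. The groups lay far apart and the difference was 3.20 ± 0.10 (SE, n = 3 each; limma adjusted p = 2.11e-08). Its level was -0.12 ± 0.16 in obstruction/vehicle and 0.07 ± 0.06 in sham/Eviprostat (SD, n = 3 each), and the treated obstructed mean was 3.38 and 3.19 above those groups (limma adjusted p = 1.85e-09 and 5.42e-09). Timp1 had 2.40, 2.38 and 2.34 in obstruction/Eviprostat and 0.35, 0.16 and 0.13 in sham/vehicle. All treated arrays were higher, and the difference was 2.16 ± 0.11 (limma adjusted p = 5.1e-06). Timp1 averaged 4.42 in obstruction/vehicle and 0.28 in sham/Eviprostat, and the treated mean was 2.04 below the first and 2.10 above the second (limma adjusted p = 4.49e-07 and 1.18e-06). Of 21 metalloproteinase and inhibitor genes these 2 were called, and the list's median was 0.044. Mmp2, Mmp9 and Mmp14, a gelatinase pair and a membrane-bound member named after their values were seen, differed by -0.20, -0.065 and -0.50 and were not called.

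The promoters of 5 genes, Il1rn, Timp1, Mmp7, Ddah1 and Wfdc18, were searched on both strands for 4 motifs: AP-1 (TGANTCA), NF-kB (GGG, any 2 bases, TT, any base, CC), the TATA box (TATAAA) and the androgen response element (AGAACA, any 3 bases, TGTTCT). The windows run from 250 bases before to 50 after the gene start in RefSeq on GRCr8. Those of Mmp7 and Il1rn are shown, as the genes that moved most, with matches in capitals.
Mmp7, GRCr8 chr8:13132793-13133092, plus strand: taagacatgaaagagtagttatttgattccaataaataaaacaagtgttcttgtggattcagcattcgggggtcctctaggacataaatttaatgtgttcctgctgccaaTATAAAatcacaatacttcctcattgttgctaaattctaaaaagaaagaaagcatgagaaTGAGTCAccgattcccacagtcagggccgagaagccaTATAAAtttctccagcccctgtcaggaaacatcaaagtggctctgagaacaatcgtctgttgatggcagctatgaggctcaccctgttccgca
Il1rn, GRCr8 chr3:27520072-27520371, plus strand: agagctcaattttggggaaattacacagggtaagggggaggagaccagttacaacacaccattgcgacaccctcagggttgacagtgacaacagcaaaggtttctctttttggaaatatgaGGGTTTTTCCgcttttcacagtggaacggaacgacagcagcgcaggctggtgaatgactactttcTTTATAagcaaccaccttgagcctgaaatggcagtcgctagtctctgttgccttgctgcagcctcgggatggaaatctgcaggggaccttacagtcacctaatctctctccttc
In Mmp7 the AP-1 letters start at position -80 and TATAAA at -140 and -43. In Il1rn the NF-kB letters start at -129 and the TATA letters lie on the minus strand at -64. In Wfdc18 TATAAA starts at -33, and the windows of Timp1 and Ddah1 held no match for any of the 4 motifs. The androgen response element was in 0 of the 5 windows. No matches overlapped. Among 33469 promoters of this length, 7.33% hold the AP-1 letters, 5.0% the NF-kB letters, 14.2% TATAAA and 0.0149% the androgen response element. A match is a description of letters, not a binding site, and the absence of one says only that the letters are not in the window.

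Matrix genes leaned higher as a list, but few were called. Of 37 measured, 2 were called higher and 0 lower, and 29 had a positive difference, with a median of 0.26. With an unadjusted limma p under 0.05 there were 12 genes higher and 0 lower. Over all 36097 probes, not the brightest alone, 2019 had such a p either way, so the counts are not like for like. The list mean over an array was 0.27 to 0.28 in obstruction/Eviprostat and -0.04 to 0 in sham/vehicle. It was 0.92 to 1.5 in obstruction/vehicle and 0.26 to 0.31 in sham/Eviprostat. Loxl1, an enzyme that crosslinks elastin, had 0.90, 1.15 and 1.21 in obstruction/Eviprostat and 0.00, -0.19 and -0.09 in sham/vehicle (difference 1.18 ± 0.15, limma adjusted p = 0.00407). Its groups did not overlap, and its level in obstruction/vehicle was 2.16, or 1.08 above the treated mean. Mfap5, a microfibril protein, was 1.105 ± 0.17 higher (limma adjusted p = 0.016), and lost the call when any array but sham/vehicle replicate 2 was left out, at 0.94 to 1.22, and without background correction. Col1a1, a chain of type I collagen, had 0.85, 0.40 and 0.31 in obstruction/Eviprostat, against -0.09, -0.04 and -0.09 in sham/vehicle. It differed by 0.60 and was called with the slide as a block (limma adjusted p = 0.0263, against 0.496 without it) and with the scanner's log ratio. Its 2 other probes gave 0.20 and 0.037 and were not called. The block called 7 matrix genes, all higher.

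Growth factor genes gave 3 calls among 31, all higher, with a list median of 0.054, and 5 with the block. Ccn2, the connective tissue growth factor, had 1.18, 1.71 and 1.74 in obstruction/Eviprostat and -0.28, -0.07 and -0.08 in sham/vehicle. Obstruction/Eviprostat replicate 1 was the lowest of its group, and the groups did not overlap (1.69 ± 0.23, limma adjusted p = 0.00867), but the call was lost without replicate 2 or 3 of either group, with values of 1.59 to 1.87 over the arrays left out. Its level in obstruction/vehicle, 2.12, did not differ by test from the treated mean (limma adjusted p = 0.162; -0.57 ± 0.23). The binding protein Igfbp2 was 0.82 ± 0.10 higher (limma adjusted p = 0.00334) and averaged 0.50 in obstruction/vehicle. Igfbp6, another binding protein, was 0.62 ± 0.09 higher (limma adjusted p = 0.0147), a call lost without background correction and without replicate 2 or 3 of either group, at 0.57 to 0.66.

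**Figure D3:**
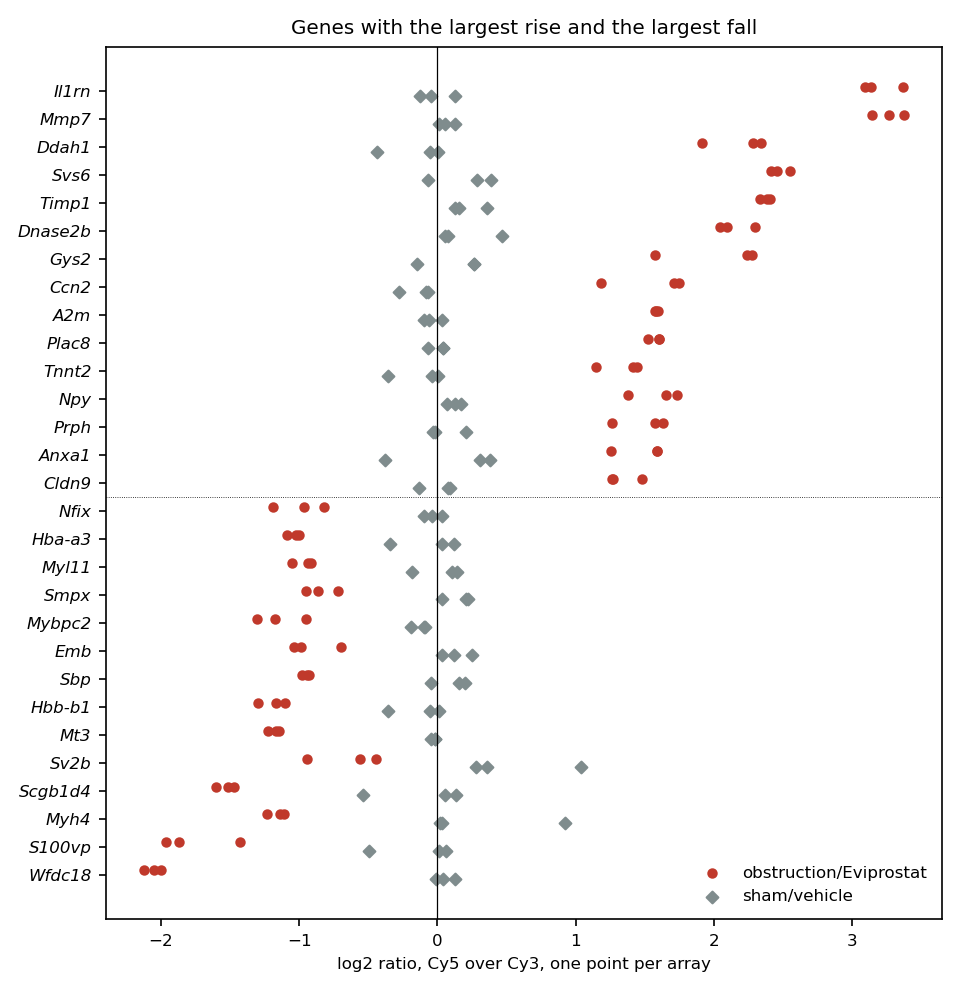
Log2 ratio of Cy5 to Cy3 on each array for the 15 genes with the largest rise and 14 of the 15 with the largest fall, obstruction/Eviprostat as circles and sham/vehicle as diamonds. The treated circles of Mmp7 sit between 3.14 and 3.38 and those of Wfdc18 between -2.12 and -2.002. In all 29 genes the groups do not overlap, as in 19.9% of all genes. The 29 were chosen by these results, so the plot is a description.

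Several other genes of varied function were also called higher. Ddah1, which breaks down the nitric oxide synthase inhibitor dimethylarginine, had 1.92, 2.34 and 2.29 in obstruction/Eviprostat and -0.44, 0.003 and -0.05 in sham/vehicle. Replicate 1 was lowest in both groups, and the difference was 2.34 ± 0.22 (limma adjusted p = 0.000569). Its other probe, printed above, gave 0.19 and was not called. Ddah1 was high in the other non-control groups too, at 1.34 ± 0.45 in obstruction/vehicle and 1.72 ± 0.31 in sham/Eviprostat (SD, n = 3 each). Gys2, the liver form of glycogen synthase, had 1.57, 2.28 and 2.24 in obstruction/Eviprostat and -0.15, 0.26 and 0.27 in sham/vehicle. Both its probes were called, at 1.90 ± 0.21 and 1.32 ± 0.19 (limma adjusted p = 0.00212 and 0.00987), and it lay below the control level elsewhere, at -0.48 in obstruction/vehicle and -1.47 in sham/Eviprostat. Of 16 glycogen genes it was the 1 called.

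A2m, the protease inhibitor alpha-2-macroglobulin and an acute phase protein of the rat, had 1.57, 1.58 and 1.60 in obstruction/Eviprostat and 0.04, -0.06 and -0.10 in sham/vehicle. The treated arrays lay close together and the difference was 1.62 ± 0.14 (limma adjusted p = 0.000237). It averaged 1.14 in obstruction/vehicle and -0.31 in sham/Eviprostat. Of 29 complement and acute phase genes A2m and C1qc were called, with a list median of 0.12, and 5 were called with the block. Plac8, a small cysteine-rich protein of epithelial and myeloid cells, had 1.52, 1.60 and 1.61 in obstruction/Eviprostat and -0.07, 0.04 and 0.04 in sham/vehicle (1.57 ± 0.10, limma adjusted p = 1.97e-05). Its level in sham/Eviprostat was -1.60, on the other side of the control, and the obstructed treated mean was 3.17 above that (limma adjusted p = 5.42e-09). Cldn9, a tight junction claudin, was 1.33 ± 0.10 higher (limma adjusted p = 8.75e-05), with 1.41 in obstruction/vehicle and 0.08 in sham/Eviprostat. Tnnt2, the cardiac form of troponin T, was 1.47 ± 0.15 higher (limma adjusted p = 0.0011), with 1.17 in obstruction/vehicle and -0.11 in sham/Eviprostat. For these last 2 genes the test against obstruction/vehicle was not passed (limma adjusted p = 0.761 and 0.594; -0.068 ± 0.10 and 0.16 ± 0.15).

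Nerve genes rose in part. Npy, the sympathetic cotransmitter neuropeptide Y, had 1.38, 1.73 and 1.65 in obstruction/Eviprostat and 0.07, 0.17 and 0.13 in sham/vehicle (1.47 ± 0.14, limma adjusted p = 0.000484). It stood at 1.55 in obstruction/vehicle and 1.54 in sham/Eviprostat, levels within the spread of the treated obstructed arrays. Prph, the intermediate filament peripherin of peripheral neurons, had 1.27, 1.63 and 1.57 in obstruction/Eviprostat and 0.21, -0.02 and -0.03 in sham/vehicle (1.44 ± 0.17, limma adjusted p = 0.00309). It was 2.66 in obstruction/vehicle and 1.83 in sham/Eviprostat. Nefl, another nerve marker, differed by 0.23 and was not called, also with the block (limma adjusted p = 0.544). The marker S100b had no kept probe. Of 20 nerve and Schwann cell genes, 19 had a positive difference with a median of 0.32, 2 were called, and 6 were called with the block. The list mean over an array was 0.48 to 0.63 in obstruction/Eviprostat, 0.66 to 1.35 in obstruction/vehicle, 0.70 to 0.80 in sham/Eviprostat and -0.01 to 0.01 in sham/vehicle. Whether the share of nerve tissue taken with the gland differed was not tested.

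**Figure D4:**
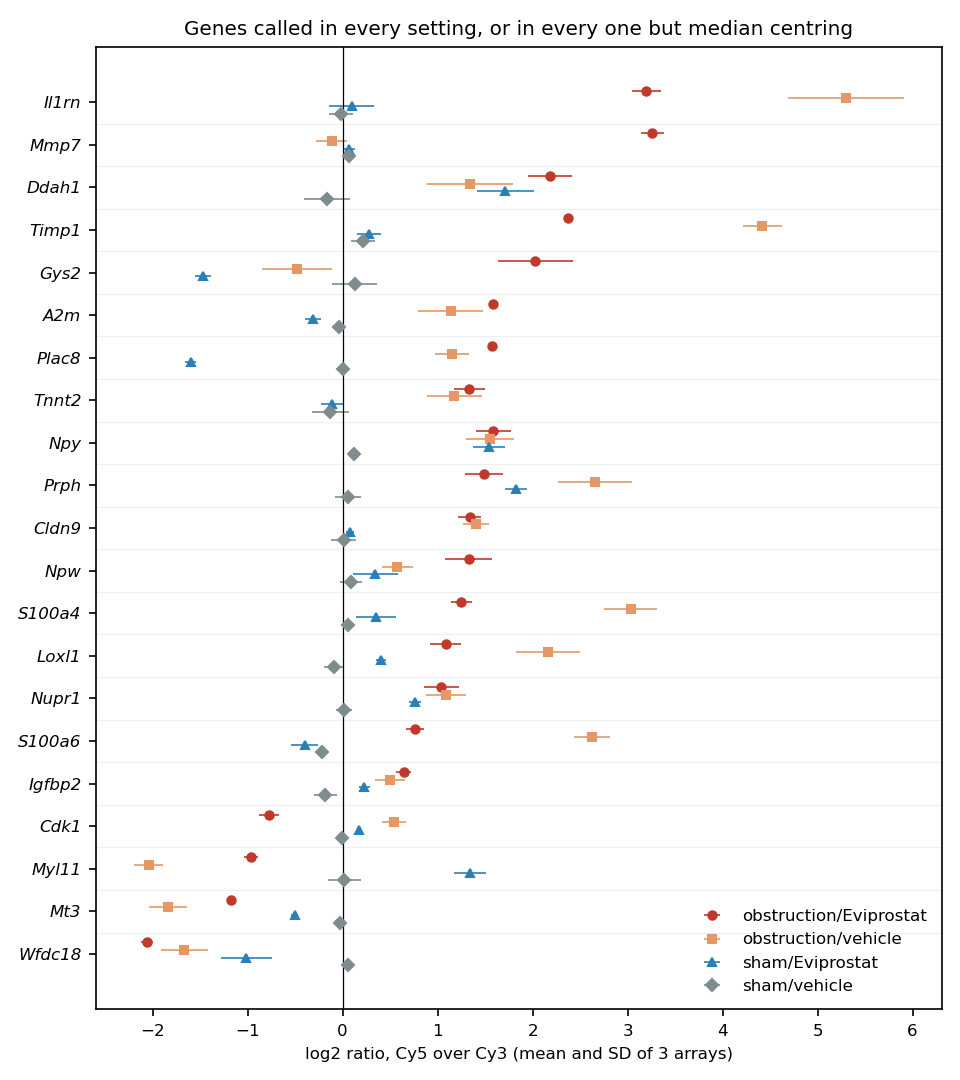
Mean log2 ratio (points) and SD (bars) of 3 arrays in obstruction/Eviprostat, obstruction/vehicle, sham/Eviprostat and sham/vehicle for 21 of the 22 genes that kept their call in all settings or in all but median centring; they were chosen by these results, so the plot is a description. Il1rn and Timp1 lie between the untreated obstructed level and the sham level, Mmp7 is high only in obstruction/Eviprostat, and Npy is between 1.54 and 1.59 in every group but sham/vehicle.

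Among calcium-binding and membrane-linked proteins, Anxa1, an annexin known as a mediator of glucocorticoid action, was 1.37 ± 0.25 higher (limma adjusted p = 0.0455), with 1.26, 1.59 and 1.59 in obstruction/Eviprostat and -0.38, 0.38 and 0.31 in sham/vehicle. The sham/vehicle arrays were spread, and the call was lost without background correction and whichever array was left out, at 1.13 to 1.51. Its second probe gave 0.75 and was not called. Anxa1 averaged 4.16 in obstruction/vehicle, 2.69 above the treated mean (limma adjusted p = 2.77e-05). S100a4 and S100a6, calcium-binding proteins named here after their values were seen, were 1.19 ± 0.14 and 0.98 ± 0.11 higher (limma adjusted p = 0.00323 and 0.00216) and kept the call whichever array was left out. They averaged 3.03 and 2.63 in obstruction/vehicle, so both treated means lay well below the untreated obstructed level. One of the 3 S100a4 probes gave 0.075. The annexin Anxa3, also named after its values were seen, went the other way, at -0.875 ± 0.10 (limma adjusted p = 0.00295). It kept the call whichever array was left out, at -0.90 to -0.83, but lost it with the median over its probes. Its other probes gave -0.63 and -0.68 and were not called.

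Some seminal vesicle genes differed between the groups. The seminal vesicle protein gene Svs6 had 2.46, 2.41 and 2.55 in obstruction/Eviprostat and 0.39, -0.07 and 0.29 in sham/vehicle (2.27 ± 0.31, limma adjusted p = 0.00816). The groups did not overlap, but the call was lost without background correction (1.49) and without obstruction/Eviprostat replicate 2 (2.30) or 3 (2.23) or sham/vehicle replicate 2 (2.14). Svs5, of the same family, had 0.53, 1.99 and 2.05 in obstruction/Eviprostat, with replicate 1 far below the others, against -0.05, 0.04 and 0.20 in sham/vehicle. It was not called (1.46 ± 0.35, limma adjusted p = 0.201) except with the block (limma adjusted p = 0.0126), on slides 2 and 3 alone (1.90), without obstruction/Eviprostat replicate 1 (1.96), in Cy5 alone (1.46) and with the scanner's log ratio (2.96). Svs4 differed by -0.23 (Cy5 saturated on 1 sham/vehicle array) and was not called. Of 9 seminal vesicle and coagulating gland genes 1 was called, and 3 with the block. The list mean over an array was 0.43 to 0.70 in obstruction/Eviprostat, 4.42 to 5.04 in obstruction/vehicle, 4.17 to 4.22 in sham/Eviprostat and 0.01 to 0.03 in sham/vehicle. Svs6 itself averaged 6.98 in obstruction/vehicle and 6.71 in sham/Eviprostat, with Cy5 saturated on 2 obstruction/vehicle arrays. Whether the amount of seminal vesicle tissue taken with the gland differed was not tested, and close paralogs of this family may share probes.

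Dnase2b, an acid endonuclease, followed the same order of groups as Svs6, at 2.14 ± 0.13 in obstruction/Eviprostat, 4.46 ± 0.58 in obstruction/vehicle, 2.97 ± 0.46 in sham/Eviprostat and 0.20 ± 0.23 in sham/vehicle (SD, n = 3 each). It was 1.94 ± 0.27 higher than in sham/vehicle (limma adjusted p = 0.0088), a call lost without replicate 2 or 3 of either group, at 1.87 to 2.08 over the arrays left out. Urothelial genes gave 1 call of 8, the keratin Krt7 (1.31 ± 0.21, limma adjusted p = 0.0235), with the defining uroplakins Upk3a and Upk1b at -0.33 and -0.39. Upk3a was called lower with the scanner's log ratio (-0.61, limma adjusted p = 0.0335). The Krt7 call was lost in Cy5 alone (1.49) and when any array but sham/vehicle replicate 1 was left out, at 1.21 to 1.47. The urothelial list mean was 0.02 to 0.18 in obstruction/Eviprostat, against -0.08 to 0.16 in sham/vehicle.

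Skeletal muscle genes were the list with the most calls among the falls. Of 29 measured, 6 were called lower and 0 higher, or 20.7% against 0.518% of all genes, and 12 were lower and 1 higher with the block, which called 1.48% of all genes lower. The median difference was -0.50 and 26 were negative. Myh4, a fast myosin heavy chain, had -1.24, -1.14 and -1.11 in obstruction/Eviprostat and 0.93, 0.02 and 0.03 in sham/vehicle. Sham/vehicle replicate 1 was far above the other control arrays, and the difference was -1.49 ± 0.23 (limma adjusted p = 0.0192). The call was lost without any 1 of the obstruction/Eviprostat arrays (-1.45, -1.50 and -1.51), and without sham/vehicle replicate 1 the value was -1.19. Myl11, a fast myosin light chain, had -1.05, -0.91 and -0.94 in obstruction/Eviprostat, against -0.18, 0.14 and 0.10 in sham/vehicle (-0.99 ± 0.12, limma adjusted p = 0.00354), and kept the call whichever array was left out. Mybpc2, a myosin binding protein of fast muscle, and Eno3, the muscle enolase, fell by 1.02 ± 0.15 and 0.92 ± 0.12 on the log2 scale (limma adjusted p = 0.0124 and 0.00816). Mybpc2 lost the call without replicate 2 or 3 of either group (-1.12 to -0.94) and Eno3 without obstruction/Eviprostat replicate 2 or sham/vehicle replicate 3 (-0.96 to -0.87). Ckm, the muscle creatine kinase, fell by 0.68 ± 0.11 on the log2 scale (limma adjusted p = 0.0309), a call lost whichever array was left out (-0.73 to -0.64). Pvalb, the calcium buffer parvalbumin, had a difference of -0.99 and was called with the block (limma adjusted p = 0.0225, against 0.423 without it) and with the scanner's log ratio, while Acta1, skeletal actin, differed by -0.11.

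The level of this muscle list differed among all groups. Its mean over an array was -0.51 to -0.33 in obstruction/Eviprostat, -0.73 to -0.66 in obstruction/vehicle and 1.05 to 1.18 in sham/Eviprostat, against -0.04 to 0.10 in sham/vehicle. Compared with sham/Eviprostat, 21 of the 29 genes were called lower in obstruction/Eviprostat, where 1.85% of all genes were called lower. Compared with obstruction/vehicle, 9 were called higher and 3 lower, where 4.34% and 8.07% of all genes were. How much striated muscle of the urethra was taken with each gland was not tested. Smpx, a small muscle protein outside the list, averaged -0.84 in obstruction/Eviprostat, 0.99 in obstruction/vehicle and 0.83 in sham/Eviprostat, against 0.16 in sham/vehicle. Its fall of 1.00 ± 0.16 on the log2 scale (limma adjusted p = 0.0192) was lost without background correction, on slides 2 and 3 alone, and without replicate 2 or 3 of either group (-1.06 to -0.95).

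A few genes of secreted proteins fell. By list, 1 of 27 secretory epithelial genes and 1 of 7 secretoglobin genes were called, with medians of 0.090 and -0.070. Wfdc18 had -2.05, -2.002 and -2.12 in obstruction/Eviprostat and 0.04, 0.13 and -0.01 in sham/vehicle. The arrays of each group lay close together, and the difference was -2.11 ± 0.14 (limma adjusted p = 3.45e-05). It averaged -1.67 in obstruction/vehicle and -1.01 in sham/Eviprostat. Wfdc3, of the same family, was 0.93 ± 0.11 lower (limma adjusted p = 0.00238), a call lost in Cy5 alone. Its level in obstruction/vehicle was -2.93, which the treated mean exceeded by 1.95 (limma adjusted p = 3.61e-07). The secretoglobin Scgb1d4 had -1.60, -1.51 and -1.47 in obstruction/Eviprostat and -0.54, 0.13 and 0.05 in sham/vehicle (-1.41 ± 0.21, limma adjusted p = 0.016). Its call was lost without background correction (-1.33) and when any array but sham/vehicle replicate 1 was left out, at -1.62 to -1.28 over the 6 arrays. It was high elsewhere, at 4.26 in obstruction/vehicle and 3.43 in sham/Eviprostat. Sbp, a spermine-binding protein of the rodent prostate, followed the same order, at -0.95 ± 0.03 in obstruction/Eviprostat, 2.87 ± 0.26 in obstruction/vehicle, 2.76 ± 0.24 in sham/Eviprostat and 0.10 ± 0.13 in sham/vehicle. It fell by 1.05 ± 0.14 on the log2 scale (limma adjusted p = 0.00816), a call lost without background correction and without replicate 2 or 3 of either group (-1.13 to -1.01). Paralogs of the Wfdc and Scgb1d families may share probes.

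Most defining markers of the prostate epithelium were well above background, and the measured ones were not called in the main fit. Probasin, Pbsn, differed by 0.090 (interval -0.20 to 0.38; Cy5 saturated on 2 obstruction/Eviprostat arrays), the transglutaminase Tgm4 by 0.008 (-0.18 to 0.20) and Msmb, a secreted microseminoprotein, by -0.19 (-0.47 to 0.095). The keratin Krt18 differed by -0.003. Of the defining epithelial markers, Acp3 was not well above background on the 6 arrays, and Spink3 had no kept probe. The keratin Krt8 differed by 0.71 and was called with the block (limma adjusted p = 0.0088, against 0.586 without it), with the scanner's log ratio and on slides 2 and 3, with 0.97 on obstruction/Eviprostat replicate 1 and 0.23 and 0.19 on the others. Of 29 androgen axis genes 1 was called, the membrane protease Tmprss2, at 0.91, 1.11 and 1.08 in obstruction/Eviprostat and -0.49, 0.15 and 0.04 in sham/vehicle (1.14 ± 0.19, limma adjusted p = 0.0292). That call was lost whichever array was left out, at 0.94 to 1.26, and without background correction. The 1 secretory epithelial gene called was Wfdc3, and the block called 3 of that list higher and 2 lower.

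Zinc-binding, blood and other genes made up the rest of the largest falls. Mt3, a metallothionein, had -1.22, -1.17 and -1.15 in obstruction/Eviprostat and -0.05, -0.02 and -0.02 in sham/vehicle (-1.15 ± 0.10, limma adjusted p = 0.000215), with -1.84 in obstruction/vehicle and -0.50 in sham/Eviprostat. Of 14 metallothionein and zinc transporter genes it was the 1 called, and 3 were called lower with the block. The globin genes Hba-a3 and Hbb-b1 fell by 0.98 ± 0.13 and 1.05 ± 0.19 on the log2 scale (limma adjusted p = 0.00816 and 0.0436). Both have near-identical copies, and Hbb-b1 lost the call in Cy5 alone, without background correction and whichever array was left out (-1.17 to -0.98), Hba-a3 without replicate 2 or 3 of either group (-1.12 to -0.88). Of 7 erythrocyte genes Hbb-b1 was the 1 called, and 3 were called with the block. The list mean was -0.40 to -0.29 in obstruction/Eviprostat, -0.46 to -0.25 in obstruction/vehicle, -0.19 to -0.17 in sham/Eviprostat and -0.01 to 0.03 in sham/vehicle, and how much blood each gland held was not tested. S100vp, whose name marks an S100 protein of the ventral prostate, averaged -1.75 in obstruction/Eviprostat and -0.14 in sham/vehicle (-1.61 ± 0.28, limma adjusted p = 0.0404). Sv2b, a synaptic vesicle protein, averaged -0.65 in obstruction/Eviprostat and 0.56 in sham/vehicle (-1.20 ± 0.21, limma adjusted p = 0.0425). Both calls were lost whichever array was left out, at -1.79 to -1.51 and -1.34 to -0.97, and that of Sv2b also in Cy5 alone and with only the 6 arrays. Emb, the membrane glycoprotein embigin, and Nfix, a nuclear factor I gene, fell by 1.04 ± 0.14 and 0.96 ± 0.14 on the log2 scale (limma adjusted p = 0.00689 and 0.0106). Emb lost the call without obstruction/Eviprostat replicate 2 or 3 or sham/vehicle replicate 2 (-1.14 to -0.97), and Nfix without obstruction/Eviprostat replicate 3 or sham/vehicle replicate 2 or 3 (-1.04 to -0.86) and with the median over its probes.

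Cell cycle genes leaned down. Cdk1, the mitotic kinase, had -0.66, -0.87 and -0.79 in obstruction/Eviprostat and -0.004, 0.04 and -0.05 in sham/vehicle (-0.77 ± 0.09, limma adjusted p = 0.00256), and kept the call whichever array was left out. It averaged 0.54 in obstruction/vehicle and 0.17 in sham/Eviprostat, so the treated obstructed level was the lowest of the 4, and lower by test than each (limma adjusted p = 2.16e-06 and 9.82e-05). Of 43 genes measured, 41 had a negative difference, with a median of -0.16, and Cdk1 was the 1 called. The block called 2. Mki67, a marker of cycling cells, differed by -0.34 (unadjusted interval -0.62 to -0.061) and was not called (limma adjusted p = 0.715) except with the scanner's log ratio.

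Of 22 genes of the unfolded protein response, 17 had a positive difference, with a median of 0.28. The list mean over an array was 0.16 to 0.2 in obstruction/Eviprostat and 0.24 to 0.26 in sham/Eviprostat. It was -0.25 to 0.03 in obstruction/vehicle and -0.1 to -0.02 in sham/vehicle. Herpud1, which acts in the disposal of misfolded proteins, had 0.80, 0.92 and 0.86 in obstruction/Eviprostat and 0.03, 0.13 and 0.14 in sham/vehicle (0.76 ± 0.10, limma adjusted p = 0.00764), and was the 1 called. The call was lost in Cy5 alone and without obstruction/Eviprostat replicate 2 or 3, at 0.72 to 0.79 over the arrays left out. With the block 7 of these genes were called higher and 1 lower. The chaperone genes Dnajb9 and Hspa5, named after their values were seen, differed by 0.61 (limma adjusted p = 0.0528) and -0.17. Ier3, an early response gene, was the 1 called of 25 immediate early and stress factors, 0.55 ± 0.10 lower (limma adjusted p = 0.0381), and lost the call without background correction, on slides 2 and 3 alone and whichever array was left out, at -0.60 to -0.52. Of 18 smooth muscle genes limma called 0, although 7 had an unadjusted p under 0.05 and 14 were positive, with a median of 0.19. The smooth muscle list mean was 0.14 to 0.16 in obstruction/Eviprostat and 0.3 to 0.38 in sham/Eviprostat. It was 0.54 to 0.78 in obstruction/vehicle and -0.13 to 0.04 in sham/vehicle. Cnn1 and Des, contractile and filament proteins, differed by 0.45 and 0.68 (limma adjusted p = 0.161 and 0.249). Both were called with the block (limma adjusted p = 0.031 and 0.0143) and with the scanner's log ratio, and the block called 6 smooth muscle genes higher and 1 lower. Myh11, another marker of smooth muscle, differed by -0.018 and was not called, also with the block (limma adjusted p = 0.971). Its other probe gave -0.059, and the marker Acta2 had no kept probe.

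**Figure D5:**
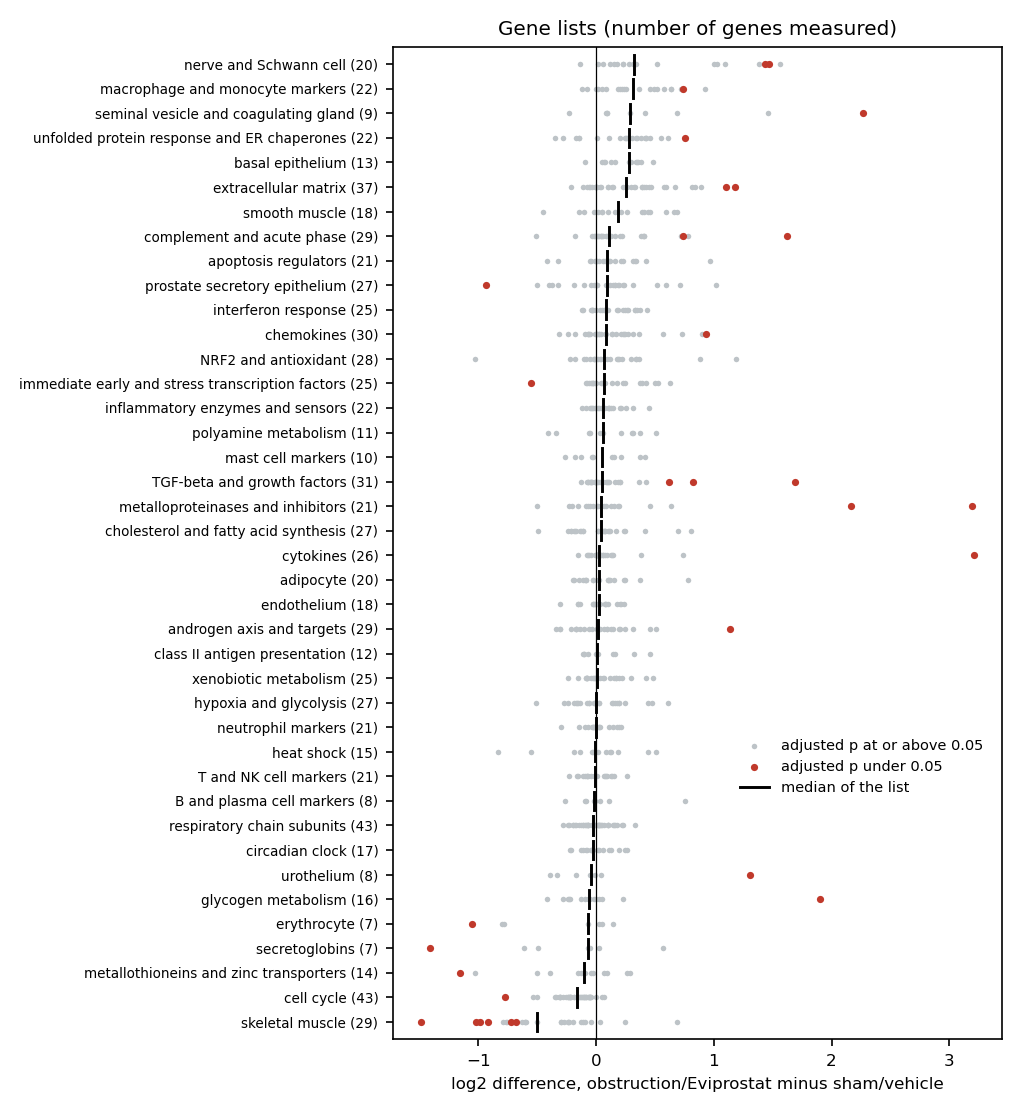
Log2 difference, obstruction/Eviprostat minus sham/vehicle, of each measured gene in 40 gene lists, sorted by the list's median (black bar), with called genes in red. Most lists lie around 0, the skeletal muscle list has the lowest median (-0.50) with 6 called genes, and single genes such as Il1rn, Mmp7, Timp1 and Gys2 stand far from their lists.

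Other lists held 0 calls by limma: class II antigen presentation (12 genes), interferon response (25), hypoxia and glycolysis (27), antioxidant genes (28), heat shock (15), T and NK cells (21), B and plasma cells (8), mast cells (10), basal epithelium (13), apoptosis regulators (21), endothelium (18), adipocytes (20), respiratory chain (43), clock (17), lipid synthesis (27), xenobiotic metabolism (25) and polyamine metabolism (11). Between 0 and 6 genes of each had an unadjusted p under 0.05. Their median differences lay between -0.026 for clock genes and 0.28 for basal epithelial genes, of which 12 of 13 were positive. The block called 3 antioxidant genes, 3 lipid synthesis genes and at most 2 in each of the others. Slc2a1, a glucose transporter of the hypoxia list named after its values were seen, averaged 0.035 in obstruction/Eviprostat, 2.23 in obstruction/vehicle and 0.008 in sham/vehicle.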

How the data were processed

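The authors deposited spot and background intensities of both dyes from the scanner software Agilent Feature Extraction (version 9.5.1.1, per the submitters' processing notes) and a table of log10 ratios. That table equals the scanner's log10 ratio of red over green at every spot (largest difference 0), so its scale and direction are known; per the file headers the processed signals were background-subtracted and dye-normalized. Its median was 0 on every array except obstruction/vehicle replicate 1 (-0.00454).

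From the deposited mean and background intensities, log2 ratios were computed with normexp (offset 50) and loess in limma 3.58.1 (R 4.3.3, statmod 1.5.0; figures with matplotlib 3.10.9 in Python 3.11.15). Control and outlier spots were left out, and spots of a probe averaged. Of 41012 probes, 36097 had Cy5 well above background on at least 3 arrays. Names were updated through GRCr8 RefSeq: 10852 probes by accession, 5537 by current symbol, 3705 by synonym and 156 by array symbol, with 20762 unnamed. A gene is its brightest kept probe. Acta2, Myh1, S100b, Spink3, Svs2, Upk1a and Upk2 had no kept named probe. All 5 promoters searched were found in RefSeq.

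All 12 arrays entered one fit of 4 group means (8 residual degrees of freedom), with all groups sharing the spread. More RNA was labelled of sham/vehicle (1500 ng) than of the other groups (300 ng). In comparisons with sham/vehicle, group therefore cannot be told apart from the amount labelled. Each slide carried 1 array per group at a fixed position, so group cannot be told apart from position, and the scan of slide 1 fell on a different day from the others. Same-numbered obstruction/Eviprostat and sham/vehicle arrays deviated together (correlations 0.536, 0.404 and 0.376). Slides 2 and 3 are hardly told apart by these correlations. Obstruction/Eviprostat replicate 2 with sham/vehicle replicate 3 gave 0.279 and the converse 0.29, while pairs of replicate 1 with another number gave -0.458 to -0.403. The number, which is the slide, pairs the arrays in the replicate block only. No label states this pairing, and the main fit left it out, so calls without the block ignore the deviations shared within a slide. Named genes are the 15 largest rises and falls among called genes that moved one way on all 3 slides, up to 4 called members per list, and a fixed set. The groups, gene lists and rules were chosen with earlier results of these data known. Some genes are not reported here. The fit was tested on simulated data. Those arrays were independent and carried no slide effect, so the test does not cover deviations shared within a slide.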

Additional observations from a re-analysis of the deposited data

How the results depend on the processing

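Numbers of probes called higher and lower in obstruction/Eviprostat against sham/vehicle (63 and 43) depended on the setting, while the called genes kept their direction in every setting run. The counts were 10 and 0 with median centring, 993 and 931 with the scanner's own log ratio, 156 and 132 with Cy5 alone, 101 and 104 without background correction, 152 and 117 with only the 6 arrays compared, 170 and 169 on slides 2 and 3, and 535 and 362 with the replicate block. Leaving out 1 array gave 22 to 56 higher and 13 to 28 lower: obstruction/Eviprostat replicates 1, 2 and 3 gave 56 and 25, 22 and 14, and 23 and 13, and sham/vehicle replicates 1, 2 and 3 gave 33 and 28, 24 and 14, and 26 and 15. The filters on dim probes moved them little (63 and 43, 72 and 49). Against obstruction/vehicle (1409 and 2127), median centring gave 132 and 1197, the scanner's log ratio 7821 and 5700 and the replicate block 4121 and 4373. Against sham/Eviprostat (350 and 473) they gave 33 and 107, 2038 and 2241, and 1599 and 1558. The block ended no call among the 76 genes, and the named genes it added stand in the report. The cause of these shifts was not tested. Dim probes limit the smallest differences that the arrays can show.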
